A study of Mus musculus and Macaca mulatta with 39 samples.

Results

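Tcf4 is a gene of mouse chromosome 18 whose interior carried a broad interval of histone acetylation in embryonic cortex from E14.5 on. The window examined, chr18:69450001-69900000 in mm9, is 450 kb long and holds Tcf4 at about 69505001 to 69850000. The interval, called the domain here, lies at chr18:69714376-69775500 and spans 61125 bp inside the gene. The window, the gene's approximate ends and the domain were set with earlier results of these lists in view, and the domain was picked for its H3K27ac. Of the 921935 regions in the 16 mouse lists, 409 fell in the window, 201 of H3K27ac and 208 of H3K4me2. No mm9 gene annotation was used, so regions are placed by position and by the approximate gene ends, not by exon or intron. In the RefSeq gene order of another build, GRCm38.p6, Tcf4 (Entrez gene 21413) follows Mc2r (17200) and is followed by Ccdc68 (381175).

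Tcf4 encodes a basic helix-loop-helix transcription factor of the E protein family, which binds E-box DNA as a homodimer or together with factors such as the Neurog and Neurod proteins. The Id proteins pair with E proteins and keep them off DNA. In developing cortex the gene is expressed in progenitors and in young neurons, and loss of a copy in people causes Pitt-Hopkins syndrome. H3K27ac marks active promoters and enhancers, and H3K4me2 marks promoters and enhancers both active and poised. In the mouse genome Tcf4 reads in the direction of rising coordinates, so its 5′ end is at the low end of the window.

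Cortex of C57BL6J embryos, with no allele or treatment named, was taken at E11.5, at E14.5 and at E17.5, the last divided into frontal and occipital cortex. Chromatin was precipitated with antibodies to H3K27ac and to H3K4me2, and each of the 4 tissues gave 2 biological replicates per mark, 8 lists a mark. The study, which compared promoter and enhancer activity in cortex development, also holds rhesus lists, which were not used here. Whole tissue was used, so a mark in fewer cells and less of a mark per cell cannot be told apart, and region lists give no level of a tissue or cell type marker with which to check the dissection. The lists hold positions only. The value of a list is therefore the length its regions cover, and the read depth behind each call is unknown. Values are given with replicate 1 first and replicate 2 second.

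The lists differed in size, which bears on every length below. Whole H3K27ac lists covered 63.1 to 169 Mb and whole H3K4me2 lists 65.3 to 162 Mb. The H3K27ac lists at E11.5 were the shortest of that mark, at 85.3 and 63.1 Mb, and H3K4me2 occipital replicate 2 was the longest of its mark. Lengths are therefore also given per Mb that the whole list covers.

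**Figure D1:**
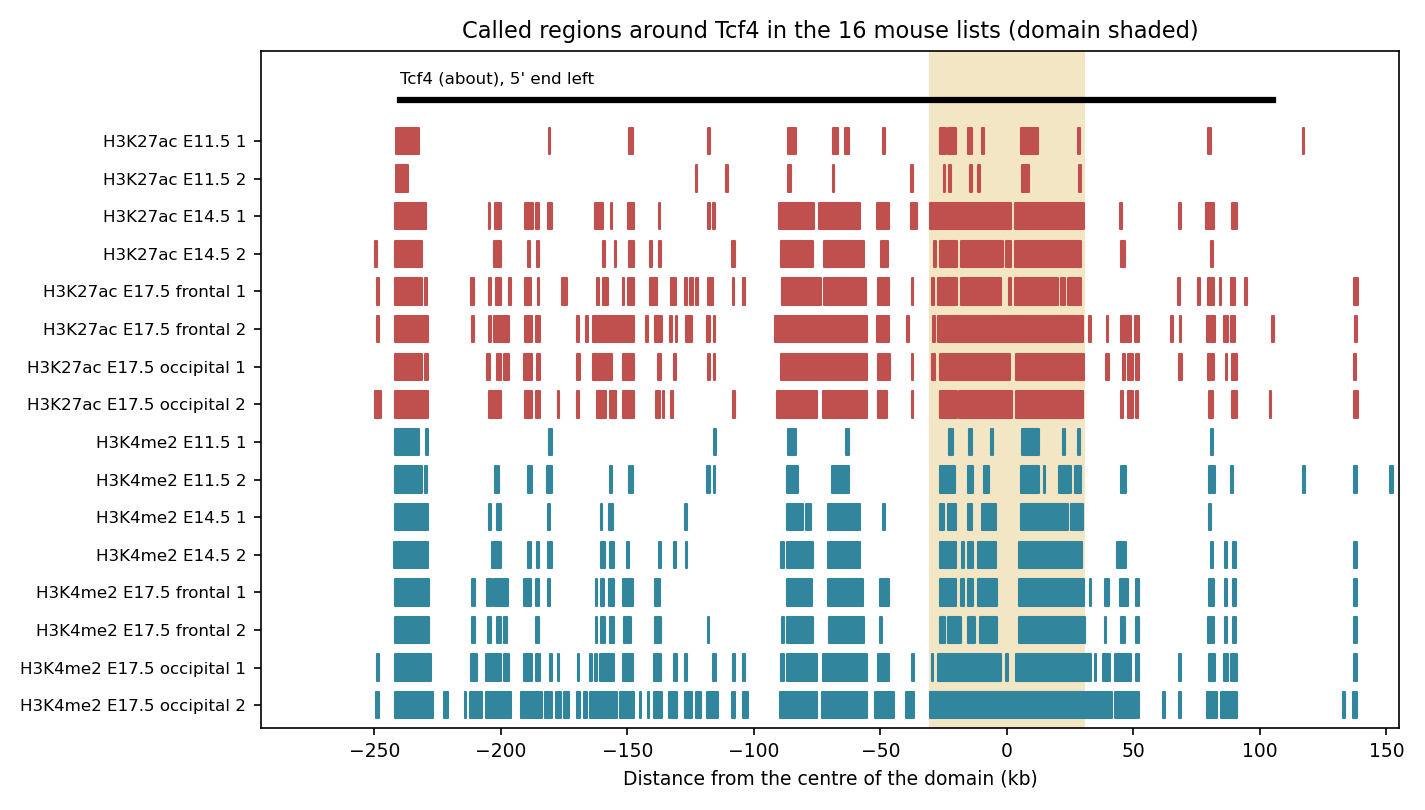
Regions called in each of the 16 mouse lists (rows, with mark, tissue and replicate) across the 450 kb window, plotted by distance in kb from the centre of the domain, which is shaded. The bar at the top spans Tcf4 at its approximate ends. The 2 H3K27ac lists at E11.5 hold 6 short regions each in the shaded interval, and the 6 later ones fill most of it.

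Over the domain, H3K27ac was sparse at E11.5 and nearly continuous at every later stage. The E11.5 lists covered 15275 and 6000 bp of it, each in 6 separate regions. The E14.5 lists covered 59600 bp in 2 regions and 51925 bp in 5. The lowest value at E14.5 or later was thus more than 3 times the highest at E11.5, with no overlap between the lists.

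At E17.5 the covered length stayed near that of E14.5. Frontal cortex had 48250 bp in 7 regions and 58400 bp in 2, and occipital cortex 55900 and 54025 bp in 3 regions each. Of the 4 E17.5 values, 3 lay between those of E14.5 and frontal replicate 1 lay below, so the later stages and the 2 areas overlapped. The tissue means were 10637.5 ± 6558 bp at E11.5, 55762.5 ± 5427 at E14.5, 53325 ± 7177 in frontal and 54962.5 ± 1326 in occipital cortex (SD, n = 2 each). These are 17.4, 91.2, 87.2 and 89.9% of the domain. The mean at E14.5 was 5.24 times, and at E17.5 5.09 times, that at E11.5. Because the domain was chosen on this measure, these values are a description and were not tested.

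The size of that rise depended on the size of the lists. Per Mb of list, the domain held 179 and 95.1 bp at E11.5 and 412 and 485 bp at E14.5. At E17.5 it held 285 and 364 bp in frontal and 346 and 418 bp in occipital cortex. On this scale the lists at E11.5 again did not overlap the later ones, but the ratio of E14.5 to E11.5 was 3.27 and that of E17.5 to E11.5 was 2.58. The part of list size in the change was not tested beyond this scaling.

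The widest H3K27ac region in the domain was wider in every later list than at E11.5. The widest region touching it measured 6725 and 2850 bp at E11.5, then 32350 and 25950 bp at E14.5. At E17.5 it measured 16875 and 57375 bp in frontal and 27900 and 26550 bp in occipital cortex. In frontal replicate 2 this region, chr18:69717701-69775075, was the 6th widest of 75764 in its list, whereas at E11.5 the widest regions ranked 711th of 50882 and 2936th of 47631. The number of separate regions did not fall in every later list. It was 6 in both E11.5 lists, 2 to 5 in 5 of the later lists and 7 in frontal replicate 1.

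The gaps themselves recurred in place. Inside the domain, uncalled gaps summed to 40100 and 48175 bp at E11.5 and to between 1075 and 10725 bp in the 6 later lists. A gap of 1525 to 2125 bp around 69746226 to 69748450 was present in both E14.5 lists, frontal replicate 1 and both occipital lists. Frontal replicate 2 lacked it and was the only later list with an unbroken region across that place. Its only inner gap, chr18:69716626-69717700, overlapped inner gaps of E14.5 replicate 2, frontal replicate 1 and occipital replicate 1. Another gap, starting at 69725051 to 69725152, recurred in E14.5 replicate 2, frontal replicate 1 and occipital replicate 2.

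Most of the acetylated length after E11.5 was shared by every later list. In the domain, 30024 bp (49.1%) were in no E11.5 list and in all 6 later ones. A further 5150 bp were in all 8 H3K27ac lists, and 0 bp were held by all 4 E17.5 lists without any earlier one. The bases called in all 8 lists formed short stretches, of which the longest in the domain was chr18:69751001-69753850 (2850 bp). The same place was the widest domain region of E11.5 replicate 2 and lay inside that of E11.5 replicate 1.

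The edges of the domain were set by these lists. Its ends are those of E14.5 replicate 1, whose regions reached both. The nearest H3K27ac loci outside, where a locus is the merged extent of touching regions over the 8 lists, were chr18:69707051-69709475 (in 5 lists, at most 2425 bp) and chr18:69777526-69778175 (in 1 list, 650 bp). The replicates covered the same bases to different degrees. The shared share of all bases covered by either replicate was 0.319 at E11.5, 0.871 at E14.5, 0.818 in frontal and 0.945 in occipital cortex.

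**Figure D2:**
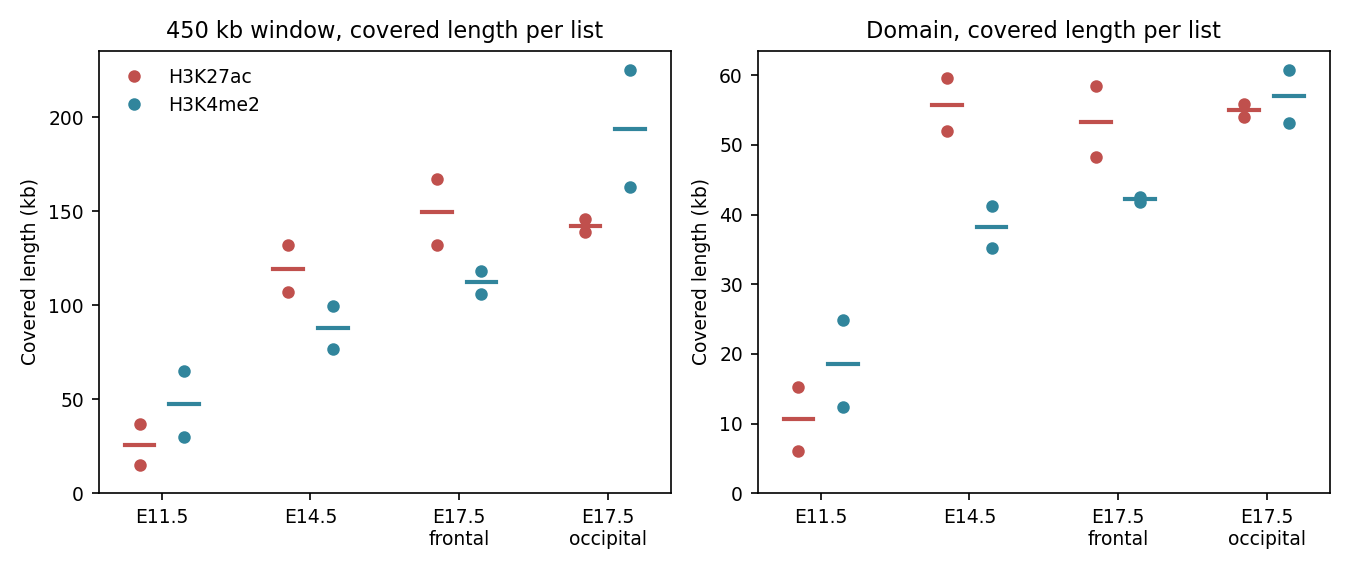
Covered length in kb over the 450 kb window (left) and over the domain (right), per list. Points are lists, bars are the means of 2 replicates, and the colours are H3K27ac and H3K4me2. Over the domain H3K27ac stands at 6.0 to 15.3 kb at E11.5 and 48.3 to 59.6 kb later, and H3K4me2 is highest in the 2 occipital lists.

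H3K4me2 was more evenly spread over the stages. The domain was picked for its H3K27ac, but with earlier results of these lists in view. H3K4me2 also lay on 59.0 to 100% of the domain's H3K27ac length in a list pair. The H3K4me2 values and tests below are therefore not independent of that choice. The E11.5 lists covered 12350 and 24875 bp of the domain, and the E14.5 lists 35175 and 41275 bp. Frontal cortex had 42475 and 41850 bp and occipital cortex 53150 and 60775 bp. No tissue overlapped another, and the order was E11.5, E14.5, frontal, occipital. The means were 18612.5 ± 8857, 38225 ± 4313, 42162.5 ± 442 and 56962.5 ± 5392 bp (SD, n = 2 each), or 30.4, 62.5, 69.0 and 93.2% of the domain. E14.5 and frontal cortex are neighbours in this order that differ by less than the SD at E14.5.

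Part of that order did not hold once list size was taken into account. Per Mb of list, H3K4me2 over the domain was 178 and 223 bp at E11.5, 538 and 433 bp at E14.5, 405 and 465 bp in frontal and 471 and 375 bp in occipital cortex. The E11.5 lists stayed below all others. The occipital lists now overlapped the frontal ones, with a frontal to occipital ratio of 1.03 in place of 0.740.

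The locus that the domain's H3K4me2 belongs to rose between E11.5 and E17.5. This locus, chr18:69714726-69786525, reaches past the 3′ end of the domain and was called in all 8 lists. It covered 12350 and 24875 bp at E11.5, 35175 and 41275 at E14.5, 44600 and 42750 in frontal and 59025 and 71800 in occipital cortex. The log2 change of E17.5 against E11.5 was 1.59 ± 0.31 (SE) on the scale of log2(covered bp + 200), with an adjusted p of 0.0180 (limma over all H3K4me2 loci, Benjamini-Hochberg). The median locus changed by 0.37, so the change relative to it was 1.22. All 4 E17.5 lists were above both E11.5 lists.

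The other contrasts of this locus did not pass the threshold. The limma change was 1.11 for E14.5 against E11.5 (adjusted p = 0.375), 0.48 for E17.5 against E14.5 (adjusted p = 0.402) and -0.57 for frontal against occipital cortex (adjusted p = 0.614). The call for E17.5 against E11.5 was lost with 1000 bp added in place of 200. It was also lost without E11.5 replicate 1, frontal replicate 1, occipital replicate 1 or occipital replicate 2, each left out in turn, with adjusted p reaching 0.130.

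The widest H3K4me2 region of the domain grew in the same lists. It measured 6725 and 7125 bp at E11.5, 18650 and 25025 bp at E14.5, 25525 and 25875 bp in frontal and 29850 and 71800 bp in occipital cortex. The last of these was unbroken over all but 350 bp of the domain and was the 2nd widest of the 76833 regions in its list. Apart from it, the widest region began between 69748351 and 69750801 in every list and extended toward the 3′ end with stage.

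The H3K4me2 lists left the middle and the 5′ edge of the domain uncalled in all but the occipital tissue. A gap in H3K4me2, at chr18:69741126-69749725 in frontal replicate 1 and overlapping that place in the others, was the longest inner gap in each list from E11.5, E14.5 and frontal cortex, at 8600 to 12550 bp. In occipital replicate 1 the longest was 3050 bp, and occipital replicate 2 had none. At the 5′ edge the first 4000 to 7500 bp were uncalled in the same 6 lists, and the first 925 and 350 bp in the occipital ones, replicate 1 having a further gap of 2050 bp close by. Of the domain, 7950 bp were called in both occipital lists and in no frontal list, and 0 bp the other way. H3K27ac covered part of that place in every list from E14.5 on, and its own recurrent gap lies within it.

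Where H3K27ac was called in the domain, H3K4me2 mostly was too, and the reverse held less evenly. Of the H3K27ac length, 67.9 and 90.0% also had H3K4me2 at E11.5, 59.0 and 78.5% at E14.5, 80.9 and 70.9% in frontal and 93.8 and 100% in occipital cortex. Over the whole genome the same shares were 56.7, 71.4, 37.8, 56.5, 41.2, 41.4, 48.2 and 70.0% in that order. The domain was thus above its own list in all 8 pairs. H3K4me2 itself covered 20.2 and 40.7% of the domain at E11.5 and 57.5 to 99.4% in the 6 later lists. The high later shares of H3K27ac length follow largely from that cover, and nothing is read from them. Of the H3K4me2 length in the domain, 84.0 and 21.7% had H3K27ac at E11.5, and 88.9 to 100% in the 6 later pairs. The genome's shares were 69.8 and 40.4% at E11.5 and 55.8 to 83.7% later. The domain was above its own lists in 7 pairs and below them in E11.5 replicate 2. In the 6 later lists H3K27ac filled 78.9 to 97.5% of the domain, which was picked for that mark. The high later shares of H3K4me2 length with H3K27ac follow from that choice, and nothing is read from them.

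The 2 replicates at E11.5 stood apart from each other in this respect. Replicate 1 had 4900 bp with H3K27ac alone and 1975 bp with H3K4me2 alone, and replicate 2 had 600 and 19475 bp. Replicate 2 had the shortest H3K27ac list and a H3K4me2 list of 112 Mb, beside 69.3 Mb for replicate 1. The part of these list sizes in the difference was not tested.

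**Figure D3:**
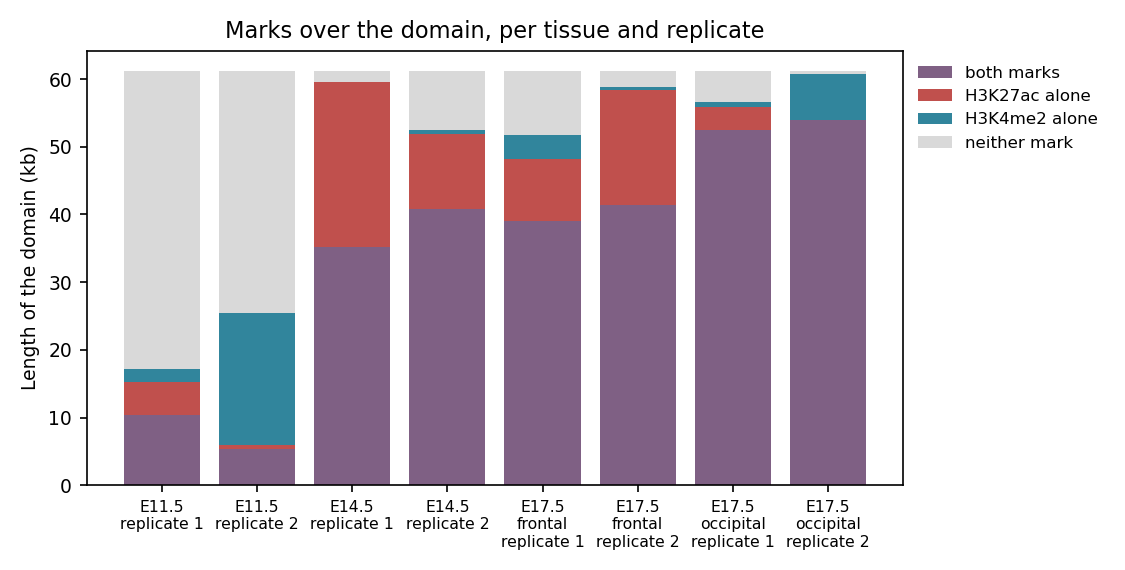
Length of the domain in kb with both marks, H3K27ac alone, H3K4me2 alone or neither, for the 8 pairs of lists of a tissue and replicate. At E11.5 the stretch with neither mark measures 43.9 and 35.7 kb, and in the 6 later pairs it is between 0.35 and 9.43 kb.

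Little of the later acetylation lay on bases already called for H3K4me2 in both E11.5 lists. Of the 30024 bp of the domain with H3K27ac in no E11.5 list and in all later ones, 4.33% had H3K4me2 in both E11.5 lists, 25.2% in 1 of them and 70.4% in neither. In the whole window the gained length was 56299 bp, with shares of 3.82, 25.6 and 70.6%. Over the genome the same shares were 13.6, 14.7 and 71.7% of 13632662 bp. The share with no earlier H3K4me2 was thus close to that of the genome, and the share with H3K4me2 in both lists was lower. Bases of a locus are not independent, and no test was made of this difference.

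Most bases called in both E11.5 lists were also called later. Of the 11975 bp of the window with H3K27ac in both E11.5 lists, 100% were in all 6 later lists, against 74.6% over the genome. Of these, 5150 bp lie in the domain, which was picked for its H3K27ac, so nothing is read from this difference. For H3K4me2 the share was 91.4% of 28475 bp, against 76.3% over the genome. Of these, 11675 bp lie in the domain, whose H3K4me2 values are not independent of its choice, so nothing is read from this difference either. For either mark, 0 bp were in both E11.5 lists and in no E17.5 list. The 11975 bp of H3K27ac are part of the 39525 bp that either E11.5 list held, and the others were not all called later. The loci chr18:69633976-69634550 (575 bp) and chr18:69861926-69862425 (500 bp), named after their values were seen, were each in 1 E11.5 list alone. In all 16 lists together 10650 bp were called, in 6 stretches. The longest, chr18:69503276-69508275 (5000 bp), lies at about the 5′ end of the gene, and the next, chr18:69751001-69753850, inside the domain.

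The region at the 5′ end of Tcf4 was called in all 16 lists. Its H3K27ac locus, chr18:69503026-69516175, spans the approximate start of the gene and covered 9350 and 5000 bp at E11.5, 12325 and 10750 bp at E14.5, 11275 and 12975 bp in frontal and 11950 and 12875 bp in occipital cortex. Its H3K4me2 locus, chr18:69502801-69517925, covered 10250 and 11800 bp at E11.5 and 13000 to 14975 bp in the 6 later lists. The H3K4me2 change of E17.5 against E11.5 was 0.35 ± 0.09 (SE, limma adjusted p = 0.0406), which is -0.02 relative to the median locus. That call was lost, or the sign turned, under 11 of the 14 alternatives, among them leaving out any list but E11.5 replicate 2, and with lengths scaled to the list total the change was -0.026.

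**Figure D4:**
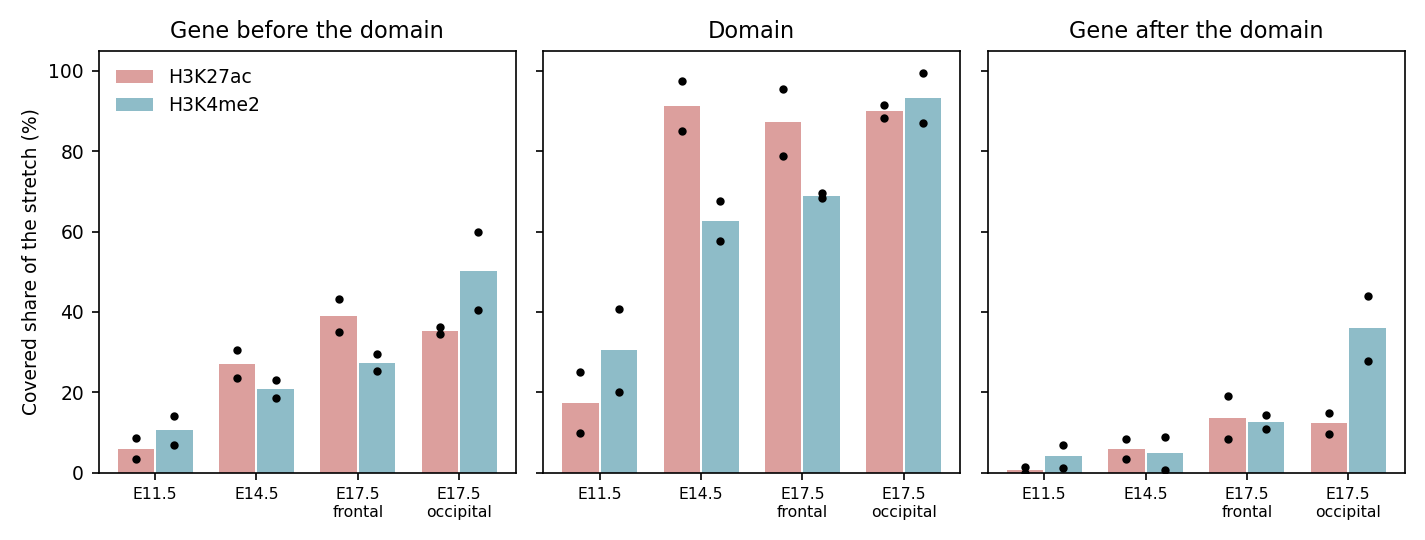
Covered share in percent of the gene before the domain (left, 209375 bp), the domain (centre) and the gene after it (right, 74500 bp). Bars are means of 2 lists, and points are the lists. The domain reaches 78.9 to 97.5% for H3K27ac after E11.5, and the gene on its 3′ side stays below 20% for that mark.

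Between the 5′ end and the domain, acetylation also rose after E11.5 but stayed in patches. This 209375 bp stretch had 18075 and 7050 bp of H3K27ac at E11.5, 63900 and 49550 bp at E14.5, 73276 and 90400 bp in frontal and 75675 and 72300 bp in occipital cortex. Mean shares were 6, 27.1, 39.1 and 35.3%. Every E17.5 list was above both E14.5 lists. Per Mb of list they overlapped, at 442 and 463 bp at E14.5, 433 and 564 in frontal and 468 and 559 in occipital cortex. H3K4me2 there was 14550 and 29750, 38851 and 48500, 61875 and 52950, and 84950 and 125450 bp in the same order.

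After the domain the gene was thinly covered. H3K27ac in these 74500 bp was 1150 and 0 bp at E11.5, 6350 and 2500 at E14.5, 6250 and 14175 in frontal and 11125 and 7225 in occipital cortex. H3K4me2 was 975 and 5200, 600 and 6625, and 10625 and 8050 bp up to frontal cortex, and 20675 and 32825 bp in occipital cortex. The occipital lists were thus above the other 6, and part of that length was the H3K4me2 region running out of the domain.

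The largest H3K27ac locus beside the domain lay about 25 kb before it. It spans chr18:69653251-69689800 and covered 7125 and 1850 bp at E11.5, 30125 and 28500 bp at E14.5, 32225 and 36275 bp in frontal and 33950 and 33275 bp in occipital cortex. This locus, the 5′ end and the domain were the 3 of 44 H3K27ac loci in the window that were called in all 8 lists. H3K4me2 covered the same place as 2 loci, described below.

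The next largest loci were chr18:69581201-69597475 and chr18:69693651-69698675. The first covered 1525 and 0 bp at E11.5, 5925 and 3150 bp at E14.5, 6025 and 16250 bp in frontal and 12050 and 10225 bp in occipital cortex, and so had every E17.5 list above the E14.5 lists. The second covered 650 and 0 bp at E11.5 and 2700 to 4875 bp in the later lists, which overlapped between E14.5 and E17.5.

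Of the 44 H3K27ac loci, 28 were in at least 2 lists and 16 in 1 list. In 10 of the 28 both E14.5 lists were above both E11.5 lists, where 29.2% of all 85290 such loci of the genome were higher without overlap. For E17.5 against E11.5 the count was 13 of 28, beside 28.9% of all loci. For E17.5 against E14.5 it was 5 of 28, beside 11% of all, and 0 loci were lower in these 3 contrasts, beside 3.72, 3.93 and 6.15% of all. Between areas 4 were higher and 1 lower in frontal cortex, beside 12.9 and 7.03% of all. These contrasts hold the mark the domain was picked on, and nothing is read from the counts.

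The window as a whole had 36725 and 14775 bp of H3K27ac at E11.5, 131750 and 106775 at E14.5, 131750 and 166950 in frontal and 145650 and 138950 in occipital cortex. On the log2 scale the difference from E11.5 was 2.34 at E14.5 and 2.63 at E17.5. As plain ratios these were 4.63 and 5.66, which fell to 2.87 and 2.86 per Mb of list. The ratio of E17.5 to E14.5 was 1.22 as listed and 0.994 per Mb. Among 5288 windows of the same size laid end to end over the genome, the median differences were 0.59 and 0.99. Windows higher without overlap made up 55.8 and 62.1% of all, so a rise in H3K27ac after E11.5 was common. By covered length the Tcf4 window ranked 604th and 1562nd at E11.5 and between 28th and 171st later.

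H3K4me2 over the window rose with stage and was longest in occipital cortex. The E11.5 lists covered 29800 and 64900 bp, the E14.5 lists 76500 and 99675, frontal cortex 118400 and 106125 and occipital cortex 162875 and 224800 bp. No tissue overlapped another. Per Mb of list the values were 430 and 581, 1171 and 1047, 1130 and 1179, and 1444 and 1386 bp, where E14.5 and frontal cortex overlapped and occipital cortex remained the highest.

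Within its own list the window stood higher at each later stage. Among 5236 windows it ranked 570th and 194th by H3K4me2 at E11.5 and 15th and 10th at E14.5. It was 6th in both frontal lists and 1st in both occipital lists. A rank within a list is unchanged by scaling the list to its total, but the part of read depth and region calling in it is unknown. The end-to-end windows were laid so that the Tcf4 window is one of them. Windows were also slid in steps of 25 kb, an alternative chosen after seeing the data, in which neighbouring positions overlap. Then 10 of 105526 positions elsewhere exceeded the Tcf4 window in occipital replicate 1, the highest at 197625 bp, and 0 of 105612 in replicate 2. The counts were 92 and 88 in frontal cortex, 315 and 194 at E14.5 and 10239 and 3319 at E11.5.

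Tested over windows, the H3K4me2 changes did not pass the threshold. For E17.5 against E11.5 the log2 change was 1.73 ± 0.30 (SE), limma adjusted p = 0.127, against a median of 0.39 over all windows. For E14.5 against E11.5 it was 0.99 ± 0.35 (limma adjusted p = 1) against a median of -0.17, and 98.0% of windows lay below it. For E17.5 against E14.5 it was 0.74 ± 0.30 (limma adjusted p = 0.290) against 0.59. Frontal against occipital cortex gave -0.77 ± 0.35 (limma adjusted p = 0.594) against -0.48. The contrasts against E11.5 share its 2 lists.

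The limma fit called 0% of the 5236 windows in each contrast, while 84, 786, 856 and 255 windows had an unadjusted p below 0.05 in the order above of E14.5 and E17.5 against E11.5, E17.5 against E14.5, and area. The E17.5 change of the Tcf4 window did pass under other settings. Its adjusted p was 0.00492 with lengths scaled to the list total, with a change of 1.35, and 0.0207 when every list kept the same number of its widest regions. Under those settings other windows passed as well, with 8.75% of all windows called higher in the scaled fit and 3.78% in the other. The change of the Tcf4 window did not pass with 1000 bp added or without the filter on lists (limma adjusted p = 0.107 and 0.113).

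**Figure D5:**
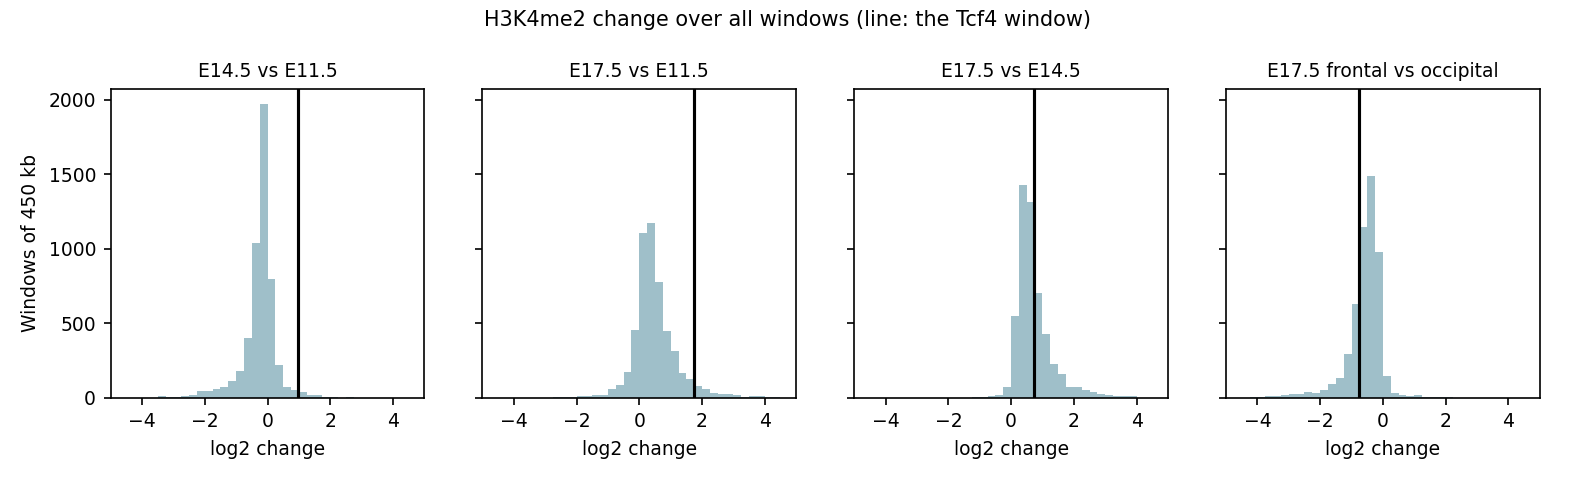
Distribution of the H3K4me2 log2 change over 5236 windows of 450 kb for each contrast, with the Tcf4 window as a vertical line. The line lies at 0.99, 1.73, 0.74 and -0.77, beyond most windows for E14.5 and E17.5 against E11.5 and near the bulk in the other panels.

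At the finer scale of loci, 14 H3K4me2 loci in the window were called higher at E17.5 than at E11.5, a count that the filter and the lists used both move. Of the 37 H3K4me2 loci in the window, 26 were in at least 2 lists and were tested. In limma the 14 were higher at E17.5 (adjusted p below 0.05) and 0 lower, where 19.5% of all 63453 loci were called higher and 3.13% lower. Loci that passed the filter through the later lists alone had to differ from E11.5, so the count is not read against that share. Of the 14, 5 were held by the occipital lists alone, 1 by the E17.5 lists alone, and 2 others had 0 bp in both E11.5 lists. The other 6 had a region in at least 1 E11.5 list: the 5′ end, the domain's locus and 4 between them. Leaving out lists in turn brought the 14 calls to between 2, without E11.5 replicate 1, and 11.

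Of the 14 called loci, 12 lay before the domain. At chr18:69655376-69669975 the lists covered 3100 and 4475 bp at E11.5, 8275 and 11375 at E14.5, 9900 and 10875 in frontal and 13450 and 14475 in occipital cortex. The change to E17.5 was 1.64 ± 0.19 (SE, limma adjusted p = 0.00374). This was also the 1 locus of 26 called for E14.5 against E11.5, at 1.33 ± 0.22 (limma adjusted p = 0.0370), where 1.87% of all loci were called higher. The E14.5 call was lost with 1000 bp added and without E11.5 replicate 1, E14.5 replicate 2 or any 1 of the E17.5 lists. The E17.5 call was lost without E11.5 replicate 1 (adjusted p = 0.0568).

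Its neighbour, chr18:69672026-69689800, covered 1400 and 6500 bp at E11.5, 12575 and 12925 at E14.5, 14050 and 13900 in frontal and 17450 and 17775 in occipital cortex. Its change to E17.5 was 2.28 ± 0.54 (SE, limma adjusted p = 0.0354), lost without the filter on lists and without either E14.5 list or any 1 of the E17.5 lists. Both lie within the H3K27ac locus that ends at 69689800.

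Shorter loci in the 5′ part of the gene included ones with 0 bp in E11.5 replicate 1 and 650 or 1675 bp in replicate 2. At chr18:69580076-69590650 the values were 0 and 650 bp at E11.5, 2325 and 3125 at E14.5, 3700 and 3900 in frontal and 7375 and 10475 in occipital cortex. Its limma change of 3.86 ± 0.58 (SE, adjusted p = 0.00642) passed in all 14 alternatives. At chr18:69539201-69548975 they were 0 and 1675, 2300 and 3400, 7025 and 3650, and 7775 and 9750 bp, with a limma change of 3.49 (adjusted p = 0.0446) that was lost in 9 of 14, among them leaving out any list but E11.5 replicate 2.

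Further loci appeared late. At chr18:69605551-69608775 the lists covered 0 bp at E11.5, 0 and 800 bp at E14.5 and 2225 to 3150 bp at E17.5 (limma change 3.85, adjusted p = 0.0104). At chr18:69692901-69700350 they covered 0 bp at E11.5, 775 and 0 bp at E14.5 and 1100 to 7450 bp at E17.5 (limma change 4.20, adjusted p = 0.0139). Both loci passed the filter through later lists alone, so a higher value than at E11.5 was fixed. These calls are therefore no evidence of a rise. Both calls were lost without E11.5 replicate 1 or either occipital list, and the second also without E11.5 replicate 2.

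The locus chr18:69532551-69537425 was in the 4 E17.5 lists alone, at 1175 and 1300 bp in frontal and 2625 and 4875 bp in occipital cortex. It passed the filter through these lists and so had to differ from the earlier stages. Its limma change was 3.54 against both E11.5 (adjusted p = 0.00374) and E14.5 (adjusted p = 0.00653), and these calls were lost without E11.5 replicate 1 and without E14.5 replicate 1 in turn. The call against E14.5 was also lost when loci were merged across gaps of up to 2000 bp (adjusted p = 0.330). All 6 loci called for E17.5 against E14.5 were this locus and 5 that the occipital lists alone held, where 13.4% of all loci were called higher.

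Between areas, the called H3K4me2 loci were nearly all ones that the occipital lists alone held, whose direction the filter fixes. In limma 8 of 26 loci were lower in frontal cortex and 0 higher, where 9.23% of all loci were called lower and 0.698% higher. Of these, 7 were the loci held by the occipital lists alone. Outside that class 1 of 19 was called, beside 1.13% of such loci over the genome called lower. The longest of them, chr18:69704951-69708300, covered 850 and 3350 bp, and the others were chr18:69495726-69496875, chr18:69566726-69568775, chr18:69574926-69576000, chr18:69636326-69637350, chr18:69640626-69642775 and chr18:69813001-69813950, at 550 to 2150 bp a list. Across the window 41350 bp were in both occipital lists and in no frontal list, which is 25.5% of what both occipital lists shared, against 14.52% over the genome. The reverse was 0 bp, against 1.51% of the frontal length over the genome.

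H3K27ac showed no such excess. In the window 1526 bp were in both occipital lists and in no frontal list, 1.23% of the shared occipital length against 3.63% over the genome. The reverse was 2821 bp, 2.42% against 6.38%. Both shares were below those of the genome. When every list kept the same number of its widest regions, 0 of the window's H3K4me2 loci were called between areas. Of all 40125 loci, 7.01% were called in that fit. H3K4me2 occipital replicate 2, the longest list, also had the most H3K4me2 in the window.

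The 8th locus went the opposite way in the other mark. At chr18:69617501-69620325 H3K4me2 covered 0 bp at E11.5, 750 and 575 bp at E14.5, 0 bp in both frontal lists and 975 and 2750 bp in occipital cortex, a limma change of -3.22 ± 0.54 (SE, adjusted p = 0.0161). H3K27ac at nearly the same place, chr18:69617652-69620701, was in the 2 frontal lists alone, at 1550 and 2375 bp. The H3K27ac locus was picked after its values were seen. The H3K4me2 call was lost when any 1 of the 4 E17.5 lists was left out and when every list kept the same number of regions.

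Among the genome's acetylated loci the domain was long and its rise was larger than most. Of 85290 H3K27ac loci it ranked 24th by span and 25th by mean covered length. Of the 175 loci spanning at least 30 kb, 26 had a larger ratio of E14.5 to E11.5 than its 5.24, with a median of 2.24. For E17.5 against E11.5, 43 had a larger ratio than 5.09, with a median of 2.48. These ranks use the measure the domain was chosen on.

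The H3K27ac loci elsewhere with the most similar lengths over the 8 lists were sought by Euclidean distance of log2(covered bp + 200). The nearest, chr5:112085327-112140125 at a distance of 0.718, had means of 12287.5, 47562.5, 51175 and 48087.5 bp in E11.5, E14.5, frontal and occipital cortex. The next, chr11:80285176-80348676 at 1.16, had 16250, 47912.5, 58150 and 53175 bp. The third, chr14:64915701-64986026 at 1.32, had 6262.5, 41137.5, 65725 and 58075 bp. Likeness over 8 lists in 4 tissues describes these lists and was not tested.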

How the data were processed

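ChIP-seq for H3K27ac (Abcam ab4729) and H3K4me2 (Millipore 07-030) was analysed in 16 mouse lists, with biological replicates and 1 input for the ChIPs of a replicate, per the series' design text. Each deposited list gives the chromosome, start and end of its regions and nothing else, so positions in bp are the only unit. Bowtie 0.12.9 and the build mm9 are named in the submitters' processing notes, without a role, while the region caller and threshold are not given in the sources used. In the window, regions were at least 500 bp wide and at least 1025 bp apart, on a 25 bp grid, so gaps shorter than that do not show.

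Covered bp was computed per list for each stretch, for 450 kb windows and for loci (regions of a mark's 8 lists merged where they touch or overlap, kept in at least 2 lists). H3K4me2 was fitted as log2(covered bp + 200) with a mean per tissue in limma 3.58.1 (lmFit, eBayes with trend, R 4.3.3), E17.5 being the mean of its 2 areas, with Benjamini-Hochberg adjustment over all windows or loci of a contrast and a threshold of 0.05. The added 200 bp understates changes of short loci. Lengths were computed in Python 3.11.15 with numpy 2.4.6, and the fit was checked on simulated data. Named loci were those touching the domain, the 5 longest by mean in each mark, and every H3K4me2 locus called, with the 3 H3K27ac loci most like the domain. The window, the domain and these lists were chosen with earlier results of these data known. A list of E protein partner genes was not analysed, since no mm9 annotation was at hand. Alternatives were another pseudocount, no filter on lists, scaling to list totals, the same number of widest regions in each list, filled or merged gaps, a replicate block, and each list left out.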

Additional observations from a re-analysis of the deposited data

How the results depend on the processing

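Of 360 alternatives to the values above, 262 were counted as the same. They kept direction and side of the threshold, moved within the replicate spread, or were counts of calls within 1.5 times the main count. Of the others, 54 ended the call of a locus, 36 values moved, 6 passed the threshold anew and 2 reversed. The 262 include the domain lengths with a replicate left out, which by construction lie within 1 SD of a mean of 2 lists. Those alternatives could not move and say nothing on stability. Scaled to list totals, the H3K4me2 change of the 5′ locus from E11.5 to E17.5 became -0.026, and that of the domain's locus from E14.5 to E17.5 became -0.054. The H3K4me2 window change of E17.5 against E11.5 passed the threshold when scaled (1.35, adjusted p = 0.00492) and with equal numbers of regions (1.74, adjusted p = 0.0207). Leaving out lists gave 1.17 (without E11.5 replicate 1) to 2.29 (without E11.5 replicate 2). Each of these fits leaves 1 list in a tissue, so only the change is given here. The ranges for the other window contrasts were 0.43 to 1.54 (E14.5 against E11.5), 0.55 to 0.94 (E17.5 against E14.5) and -1.003 to -0.54 (area).

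With the replicate number as a block, the E17.5 against E11.5 window change stayed 1.73 and its adjusted p was 0.0103, where 4.7% of all windows were called higher. Same-numbered samples had deviations correlated between -0.15 and 0.439 over 6 pairs of tissues, above 0.1 in 3 pairs and below 0 in the 3 with frontal cortex, and nothing in the labels ties the numbers to a shared source, so they were taken as numbers only. The block changed no other window call and moved no count of locus calls by over 1.5 times. It ended the calls of the 5′ locus and of chr18:69539201-69548975.

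Locus calls were fewer than 10 in 3 contrasts and moved with most choices. For E14.5 against E11.5 there were 0 with 1000 bp added, 2 with equal numbers and 0 to 4 with lists left out. For E17.5 against E11.5 there were 8 without the filter and 2 to 11 with lists left out. For E17.5 against E14.5 there was 1 without the filter, 3 with equal numbers, 3 with gaps merged and 0 (without E14.5 replicate 1) to 7 with lists left out. Between areas there were 0 with equal numbers and 0 to 8 with lists left out. The 0 with lists left out came without either occipital list, which takes loci of the occipital lists alone below the filter. With equal numbers, 8.33% of all 40125 loci were called in either direction for E14.5 against E11.5. The shares were 9.31% for E17.5 against E14.5 and 7.01% between areas. No share over all loci was computed for the other settings of this paragraph, so nothing is read from their counts.

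Domain lengths moved beyond 1 SD when scaled: H3K27ac to 17486 (E11.5), 41406 (frontal) and 48726.5 bp (occipital), and H3K4me2 to 49281 (E14.5), 44128 (frontal) and 42897 bp (occipital). Equal numbers gave 41675 bp for frontal H3K4me2, and filled gaps gave 44612.5 bp there and 57237.5 bp for occipital H3K27ac. With a replicate left out each length was that of the other list. Read depth is unknown, so a gap between regions can be a lack of reads as well as of the mark, and E11.5 values rest on 2 lists that shared 0.319 of their H3K27ac bases in the domain.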
